A study of Mus musculus with 6 samples.

Results

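The tight junction genes of the blood-testis barrier were 9 of the 45777 genes in the expression table of mouse testis, taken by symbol: the claudin genes Cldn3, Cldn5 and Cldn11, occludin (Ocln), the scaffold genes Tjp1 and Tjp3, and the junctional adhesion molecule genes F11r, Jam2 and Jam3. All 9 symbols were found, and all 9 passed the filter on low counts that kept 25073 genes for testing. The samples were testes of wild-type (WT) mice, 3 libraries from an ethanol-fed group and 3 from a control-fed group, each after 16 weeks on 10 ml per day of a liquid diet named LDC. Both groups had first received the control form of this diet for 5 days, so the groups differed by label only in ethanol. Not given in the sources used here were the ethanol content, the strain and the age of the mice. Whether the 3 libraries of a group are 3 animals is not stated, and the p-values therefore reflect variation among libraries, some or all of which may be technical.

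The barrier is a belt of junctions between neighbouring Sertoli cells, the somatic cells that nurse the germ cells of the seminiferous tubule. It divides the tubule into a basal space, which holds the spermatogonia, and an inner space, where meiosis and the shaping of sperm take place out of reach of the blood. Claudins form the sealing strands, occludin sits in the same strands, the scaffold proteins encoded by Tjp1 and Tjp3 (ZO-1 and ZO-3) tie them to actin inside the cell, and junctional adhesion molecules are immunoglobulin-like proteins that bind across the gap between cells.

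No gene of the barrier set passed the test between the diets. By the quasi-likelihood test of edgeR, adjusted by the Benjamini-Hochberg method over 25073 genes, 0 of the 9 were higher and 0 lower at an adjusted p under 0.05, against a background of 0% of all genes in each direction; DESeq2, which gave no adjusted p for Tjp3, called 0 of the other 8 (of the 13453 genes with an adjusted p it called 1.42% higher and 1.23% lower), and the lowest edgeR adjusted p among them was 0.207, for F11r. The estimates of the reported fit lay to one side of 0. The 9 genes were read in the same 6 libraries, so their signs are not independent readings. They were also chosen with earlier results of these data known. Of 9 log2 fold changes (ethanol minus control), 9 were above 0, where 51.5% of all tested genes were. Their median was 0.14 against 0.0065 for all tested genes. The sign of Tjp3 turned in 8 of the 15 alternative settings that gave it a value, and the signs of Cldn3 and Tjp1 in 2 of 16 each. In 4 of the 9, Cldn11, Ocln, F11r and Jam2, every ethanol library lay above every control library on CPM (read counts scaled to library size, with TMM factors), where 9.76% of all genes did so and 9.01% did the reverse. On TPM (transcript abundance, scaled to transcript length as well) this held for 6 of the 9, with Cldn5 and Jam3 added, where 11.7% of all genes did so and 4.41% did the reverse. An unadjusted p under 0.05 on the higher side was reached by the same 4 genes as on CPM, against 7.45% of all genes, with 0 of the 9 on the lower side against 5.89%. That count of 4 was 2 with RLE or upper-quartile scaling, with limma-trend on log2 TPM, with the replicate number as a block or without control library 2. It was 1 with DESeq2 or without control library 3, ethanol library 2 or ethanol library 3.

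The 250 bases before the annotated start of Cldn11, F11r and Cldn5 are shown because these are the genes of the set whose RefSeq promoters (GRCm38.p6) each held more than one CCAAT box, the site of the general activator NF-Y. Capitals mark CCAAT or its reverse complement, and each sequence runs 5′ to 3′ on the strand of the gene. The Cldn11 window is chr3:31149670-31149919 (+), the F11r window chr1:171437311-171437560 (+) and the Cldn5 window chr16:18776597-18776846 (+).
Cldn11: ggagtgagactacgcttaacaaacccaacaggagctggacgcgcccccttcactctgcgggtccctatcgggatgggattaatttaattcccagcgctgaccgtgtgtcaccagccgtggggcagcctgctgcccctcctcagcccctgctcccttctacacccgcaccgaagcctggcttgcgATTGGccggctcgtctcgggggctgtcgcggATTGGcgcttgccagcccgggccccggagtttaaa
F11r: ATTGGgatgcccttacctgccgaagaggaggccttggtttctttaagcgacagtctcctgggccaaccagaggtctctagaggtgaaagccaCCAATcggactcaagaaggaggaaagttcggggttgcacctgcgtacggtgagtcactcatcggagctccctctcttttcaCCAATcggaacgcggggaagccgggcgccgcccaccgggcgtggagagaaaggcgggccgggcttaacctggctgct
Cldn5: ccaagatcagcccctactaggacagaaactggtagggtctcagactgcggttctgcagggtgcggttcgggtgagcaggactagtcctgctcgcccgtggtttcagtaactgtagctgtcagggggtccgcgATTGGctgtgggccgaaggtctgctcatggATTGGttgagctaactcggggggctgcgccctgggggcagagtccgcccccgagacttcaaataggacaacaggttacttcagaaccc
Of the 7 genes of the set with a promoter in the RefSeq table, 5 held a CCAAT box on either strand, Cldn5, Cldn11, F11r, Ocln and Tjp3, compared with 33.8% of 32851 promoters of the same length. Ocln and Tjp3 had 2 listed starts each, and 1 of the 2 held the box. The 33.8% counts each start by itself, so these 2 genes had 2 chances each in the count of 5. The letters ACAAT, the core that SOX factors bind, were found in the promoter of 1 gene of the set, Tjp3, and in 27.7% of all promoters. A further motif was searched and is not reported here. ACAAT and CCAAT differ in their first letter and share the rest, so one cannot stand on top of the other on the same strand. Such matches describe the windows and say nothing of binding.

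The 9 genes covered a wide span of levels, and Cldn11 stood at the top. Cldn11 had a mean of 59.2 TPM over the 6 libraries, higher than 88.2% of the tested genes. Jam3 followed at 38.2 TPM and Tjp1 at 30.3 TPM. F11r, Jam2 and Cldn3 lay close together at 10.3, 10.3 and 9.05 TPM, Cldn5 was at 6.75 TPM and Ocln at 4.58 TPM. Tjp3 was lowest at 0.404 TPM, with between 18 and 37 reads in a library. Among neighbours in this order, the ranges over the 6 libraries overlapped between Jam3 and Tjp1, between F11r and Jam2 and between Jam2 and Cldn3, so F11r, Jam2 and Cldn3 did not differ beyond their spread. Jam3 lay above Tjp1 in 6 of 6 libraries although the ranges overlapped.

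**Figure D1:**
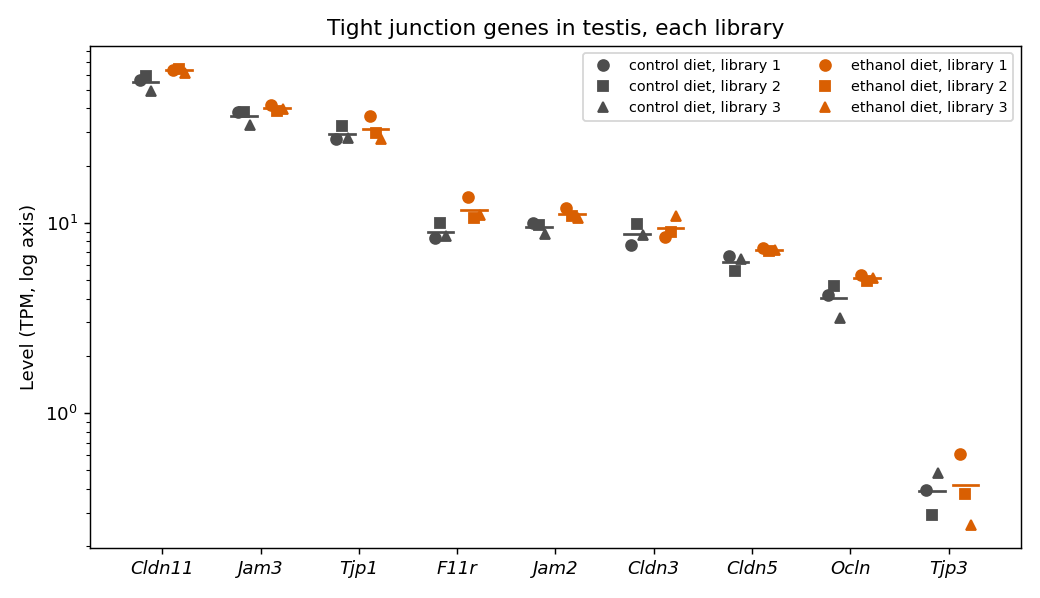
Level of each tight junction gene in TPM on a log axis, with one point per library (shape: library number; grey: control diet; orange: ethanol diet) and a bar at each group mean. Cldn11 is highest at 49.3 to 64.7 TPM and Tjp3 lowest at 0.259 to 0.614 TPM, and the diets lie close together in every gene.

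Among the claudins, Cldn11 is the one that Sertoli cell strands depend on in the mouse, where its loss leaves these strands absent and males sterile. Cldn11 (Gene ID 18417; chromosome 3, 31149920 to 31164326 of mm10) had 56.5, 59.3 and 49.3 TPM in control libraries 1, 2 and 3, and 63.9, 64.7 and 61.7 TPM in ethanol libraries 1, 2 and 3. The ethanol libraries were all above the controls, by a margin smaller than the distance among the controls. On CPM the means were 54.6 ± 2.71 in controls and 60.7 ± 2.42 with ethanol (SD, n = 3). The log2 fold change was 0.15 (SE 0.07, 95% interval 0.0041 to 0.30, edgeR adjusted p = 0.36).

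Cldn3, a claudin that in mouse testis depends on androgen and is found at newly formed junctions, showed no separation between the diets. Cldn3 (Gene ID 12739; chromosome 5, 134986214 to 134987476) was at 7.65, 9.83 and 8.63 TPM in controls and 8.41, 8.92 and 10.9 TPM with ethanol. Ethanol library 3 was the highest of all and control library 1 the lowest, and the other libraries were interleaved. Its log2 fold change was 0.07 (SE 0.15, 95% interval -0.26 to 0.40, edgeR adjusted p = 0.885), and the sign turned when control library 1 or ethanol library 3 was left out (-0.016 and -0.10).

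Cldn5, the main claudin of blood vessel walls, which is also found at mouse Sertoli cell junctions, differed little as well. Cldn5 (Gene ID 12741; chromosome 16, 18776847 to 18778262) was at 6.72, 5.59 and 6.50 TPM in controls and 7.39, 7.12 and 7.18 TPM with ethanol. The diets were apart on TPM, with control library 2 the lowest, but overlapped on CPM, where controls had 4.75 ± 0.68 and ethanol 5.25 ± 0.23 CPM (SD, n = 3). The log2 fold change was 0.14 (SE 0.14, 95% interval -0.16 to 0.45, edgeR adjusted p = 0.704) and came to 0.029 without control library 2.

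The proportions among the claudins within a library did not separate the diets. Cldn11 was 5.67 to 7.60 times the TPM of Cldn3 and 7.59 to 10.6 times that of Cldn5, and the control and ethanol ranges of both ratios overlapped. Leaving aside the Cldn34 genes, Cldn11 made up 60.2% to 64.7% of the summed TPM of the other 23 claudin genes, itself included, in every library of either diet.

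Occludin, the membrane protein of the strands that spans the bilayer like a claudin but belongs to another family, lay higher with ethanol. Ocln (Gene ID 18260; chromosome 13, 100496504 to 100552718) was at 4.17, 4.68 and 3.18 TPM in controls and 5.31, 4.98 and 5.14 TPM with ethanol. The ethanol libraries were close to each other and above all controls, among which control library 3 was low. On CPM the means were 7.89 ± 1.38 and 9.83 ± 0.64 (SD, n = 3). The log2 fold change was 0.32 (SE 0.14, 95% interval 0.016 to 0.61, edgeR adjusted p = 0.35), and it was 0.17 without control library 3.

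Neither scaffold gene separated the diets. Tjp1 (Gene ID 21872; chromosome 7, 65296165 to 65527850), whose product ZO-1 joins the strands to actin, was at 27.8, 32.3 and 28.0 TPM in controls and 36.6, 29.8 and 27.7 TPM with ethanol. Ethanol library 1 was the highest and ethanol library 3 the lowest of the 6. The log2 fold change was 0.04 (SE 0.07, 95% interval -0.12 to 0.20, edgeR adjusted p = 0.876). Its sign turned on leaving out control library 1 (-0.0020) or ethanol library 1 (-0.041). The deposited row combined 13 RefSeq transcripts, so the isoforms of Tjp1 cannot be told apart here.

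Tjp3 (Gene ID 27375; chromosome 10, 81273188 to 81291581), which encodes ZO-3 of epithelial junctions, had 31, 21 and 36 reads in controls and 37, 27 and 18 reads with ethanol. The diets overlapped fully. Its log2 fold change of 0.0024 had a 95% interval from -0.75 to 0.76 (SE 0.35, edgeR adjusted p = 0.998). Differences of either sign within that interval remain compatible with these counts. The sign flipped with RLE or upper-quartile scaling (-0.0024 and -0.0036). Tjp1 was 57.3 to 110.9 times the TPM of Tjp3.

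F11r, which encodes the adhesion molecule JAM-A of epithelial, endothelial and blood cells, had the largest log2 fold change of the 9. F11r (Gene ID 16456; chromosome 1, 171437561 to 171464593) was at 8.33, 9.97 and 8.51 TPM in controls and 13.7, 10.7 and 10.98 TPM with ethanol. All ethanol libraries were above all controls, with ethanol library 1 standing highest. On CPM the means were 11.8 ± 0.63 and 14.9 ± 1.48 (SD, n = 3). The log2 fold change was 0.34 (SE 0.10, 95% interval 0.11 to 0.56, edgeR adjusted p = 0.207). It was 0.26 without ethanol library 1.

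Jam2 and Jam3 encode partners that bind each other across cells: in the mouse JAM-B, the product of Jam2, lies on Sertoli cells, and JAM-C, the product of Jam3, on spermatids, whose shaping fails without it. Jam2 (Gene ID 67374; chromosome 16, 84774123 to 84826380) was at 9.95, 9.79 and 8.77 TPM in controls and 12.01, 10.8 and 10.6 TPM with ethanol. The diets did not overlap, and the log2 fold change was 0.17 (SE 0.08, 95% interval 0.0020 to 0.34, edgeR adjusted p = 0.368). Jam3 (Gene ID 83964; chromosome 9, 27097384 to 27155421) was at 38.2, 38.2 and 32.6 TPM in controls and 41.7, 38.9 and 39.8 TPM with ethanol. On CPM the diets overlapped for Jam3, at 41.9 ± 4.67 and 44.4 ± 4.21 (SD, n = 3), and the log2 fold change was 0.08 (SE 0.10, edgeR adjusted p = 0.764); it was 0.0086 without control library 2. Spermatid markers overlapped between the diets, at 2360 to 2514 and 2404 to 2448 TPM for round and 42756 to 46060 and 43979 to 49529 TPM for elongating spermatids, in controls and with ethanol. Jam3 was 3.47 to 3.90 times the TPM of Jam2 within a library. In GENCODE M21 Jam3 overlaps the antisense gene Gm48796 over 3793 bases and Tjp3 overlaps Apba3 on the other strand over 59 bases; how the counting used strand is not stated, so reads there may come from either gene.

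**Figure D2:**
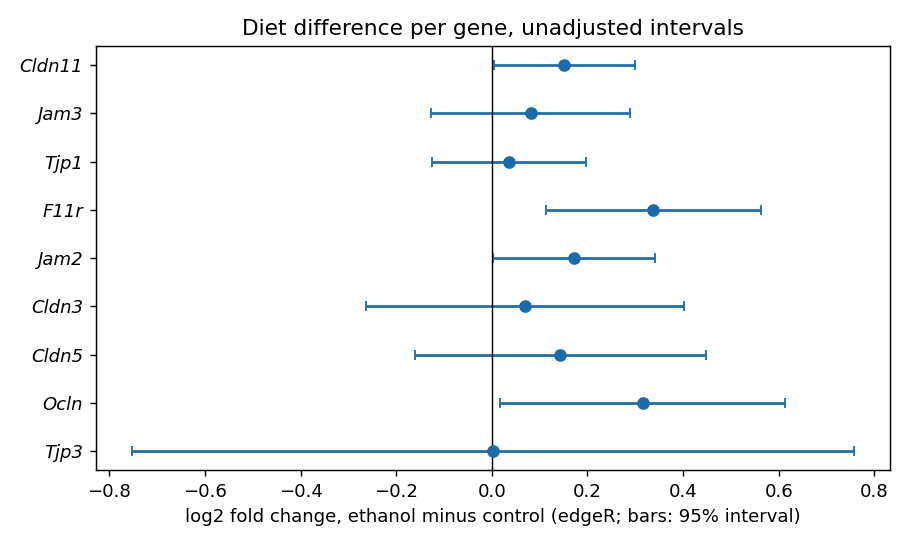
Log2 fold change of each gene, ethanol minus control, with its unadjusted 95% interval from the edgeR fit; the vertical line marks no difference. Intervals for Cldn11, F11r, Jam2 and Ocln lie above 0, that of Tjp3 is the widest, and 0 of the 9 genes pass after adjustment over all genes.

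Because whole testis was sequenced, more cells of a type and more RNA per cell cannot be told apart, and the levels of Sertoli cell markers stand beside these results. All 18 listed Sertoli markers had reads. Their summed level was 1414 to 1587 TPM in controls and 1804 to 1959 TPM with ethanol, with every ethanol library higher (exact two-sided permutation test, n = 3, p = 0.1, the smallest that 3 against 3 allows; 0.367 adjusted over 11 marker lists). Clusterin (Clu) was the largest part of the sum at 610 ± 46.4 and 737 ± 30.4 TPM. Of the 18, 16 had log2 fold changes above 0, 0 passed edgeR's test over all genes, and the median was 0.22. Below 0 were Amh, at -1.09 and at most 0.83 TPM in any library, and Fshr, at -0.085 (edgeR adjusted p of 0.343 and 0.902). The cystatin genes Cst9 and Cst12, the homeobox gene Rhox8 and transferrin (Trf) had the smallest p, with log2 fold changes of 0.32, 0.37, 0.86 and 0.47 (edgeR adjusted p between 0.145 and 0.155). DESeq2 called 5 of the 14 Sertoli markers it gave an adjusted p, all higher: Cst9, Cst12, Trf, Kitl and Mro. Spermatogonial markers, 9 of 9 detected, summed to 104.0 to 115.8 TPM in controls and 117.5 to 120.1 TPM with ethanol. These sums also did not overlap (exact two-sided permutation test, n = 3, p = 0.1, and 0.367 adjusted over 11 marker lists). Uchl1 was the largest part of the sum, with means of 48.2 and 54.2 TPM. Of the 9, 7 had log2 fold changes above 0 and 2 below. Id4 was lower in every ethanol library than in every control (log2 fold change -0.41, edgeR adjusted p = 0.153), and DESeq2 called it lower. Of 11 spermatocyte markers, 10 had log2 fold changes below 0, while their summed level overlapped between the diets at 1171 to 1280.4 and 1136 to 1258 TPM. The part of these cell types in the levels of the barrier genes was not tested.

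Set against that sum, Cldn11 was not higher with ethanol. It came to 3.62%, 3.74% and 3.49% of the Sertoli marker sum in controls and 3.26%, 3.59% and 3.18% with ethanol. Ethanol library 2 lay within the control range and the other ethanol libraries below it. The log2 ratio differed by -0.12, ethanol minus control (exact two-sided permutation test, n = 3, p = 0.2).

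**Figure D3:**
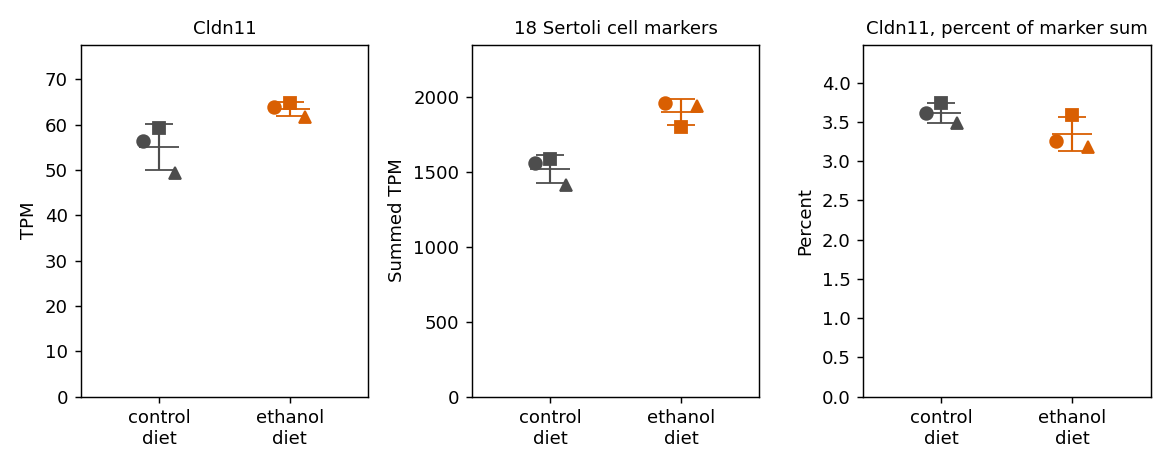
Cldn11 in TPM, the summed TPM of 18 Sertoli cell markers, and Cldn11 as a percent of that sum, each axis from 0, with one point per library and mean ± SD bars (n = 3). Cldn11 and the marker sum are both higher in all ethanol libraries, and the percent is 3.49 to 3.74 in controls and 3.18 to 3.59 with ethanol.

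Cldn5 was likewise read against endothelial markers, since it is a gene of vessel walls. All 13 endothelial markers had reads, with a sum of 32.0 to 35.6 TPM in controls and 32.9 to 40.3 TPM with ethanol, and the diets overlapped (exact two-sided permutation test, n = 3, p = 0.5). Members of that list went both ways: Cdh5, the vascular cadherin, had a log2 fold change of 0.44 and the VEGF receptor gene Flt1 of 0.28, while the vessel sialomucin gene Emcn was at -0.52 and Sox17 at -0.24, all without passing the test (edgeR adjusted p between 0.238 and 0.418). The log2 ratio of Cldn5 to the marker sum differed by 0.12, ethanol minus control (exact two-sided permutation test, n = 3, p = 0.5), and by -0.012 without control library 2.

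Markers of other tissues bear on genes that many epithelia and blood cells express. Of 15 markers of duct epithelium (rete testis, efferent ducts and epididymis), 14 had reads and the epididymal lipocalin Lcn5 was at 0. The sum was 120 to 162 TPM in controls and 140 to 151 TPM with ethanol. Nearly all of it came from the 5 markers with a mean of at least 1 TPM. These were Aqp9, Slc34a2, Epcam, Krt8 and Rnase10, at 56.2, 37.3, 35.4, 9.21 and 6.03 TPM over the 6 libraries. Lcn8, Adam7 and Crisp1 were below 0.31 TPM in every library. Epcam, which spermatogonia also express, was at 34.9 ± 2.93 and 35.9 ± 3.56 TPM, and the epithelial cadherin Cdh1 at 0.33 ± 0.13 and 0.14 ± 0.068 TPM. Blood markers summed to 30.0 to 59.5 TPM in controls and 77.9 to 93.2 TPM with ethanol, of which nearly all was globin, with 4 of 6 detected and the platelet genes Ppbp and Gp9 at 0; F11r was also higher in every ethanol library, and the part of blood cells in it was not tested. Adipose markers, 6 of 6 detected, summed to 17.002 to 28.0 TPM in controls and to 84.8, 31.9 and 25.7 TPM in ethanol libraries 1, 2 and 3. Ethanol library 1 had 30.3 TPM of Fabp4 and 27.6 TPM of Cfd. It was the highest of the 6 libraries for 7 of the 9 barrier genes on TPM (all but Cldn3 and Cldn11). On CPM it was the highest for 4 (Tjp1, Tjp3, F11r and Jam2), and ethanol library 3 was the highest for 5. The adipose sum of ethanol library 3 lay within the control range. How often each library was the highest over all genes was not counted. The part of adipose tissue in these levels was not tested.

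Other genes of the tight junction were centred near 0. Of 57 listed partner genes, made up of other membrane proteins, scaffold and polarity proteins, and regulators of the barrier, 53 were tested and 0 passed in either direction. Their median log2 fold change was 0.010, with 28 above 0 and 25 below, beside a median of 0.0065 for all tested genes. By DESeq2, which called 1.42% of all genes higher and 1.23% lower, 2 of the 42 with an adjusted p passed: Cgnl1, higher (adjusted p = 0.0363), and Ptk2, lower (adjusted p = 0.0137).

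Among the other membrane proteins 10 of 12 were tested, 4 were above 0 and the median was -0.0049. Esam, an adhesion molecule of endothelial junctions, was at 1.90 ± 0.21 and 2.50 ± 0.42 TPM with no overlap of the diets (log2 fold change 0.33, edgeR adjusted p = 0.43). Cxadr, Marveld3 and Igsf5 had log2 fold changes of -0.31, -0.26 and 0.37 (edgeR adjusted p between 0.58 and 0.678). Igsf11, an adhesion protein gene needed for the barrier in the mouse, is named here after its values were seen: it was at 38.2 ± 4.99 and 39.5 ± 6.56 TPM, a level near that of Jam3, with a log2 fold change of -0.0086 (SE 0.09, 95% interval -0.20 to 0.19) whose sign turned on the TPM scale (0.045) and with total counts alone (0.017).

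The list of scaffold and polarity proteins split evenly, with 11 of 22 above 0 and 11 below and a median of -0.00089. Cgnl1, which encodes paracingulin, a link between junctions and small GTPases, was at 15.0, 17.6 and 15.7 TPM in controls and 24.9, 18.3 and 21.2 TPM with ethanol. All ethanol libraries were above all controls (log2 fold change 0.34, SE 0.09, edgeR adjusted p = 0.174). Its relative cingulin, Cgn, stood at a log2 fold change of 0.22 and the angiomotin gene Amot of 0.36, and Sympk, which encodes a polyadenylation factor that is also found at tight junctions, of -0.21 (edgeR adjusted p between 0.185 and 0.289).

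Among genes known to regulate the barrier, 21 of 23 were tested, with 13 above 0, 8 below and a median of 0.06. Ptk2, which encodes focal adhesion kinase, was at 41.4, 45.7 and 41.6 TPM in controls and 40.2, 39.3 and 34.1 TPM with ethanol. The diets did not overlap (log2 fold change -0.24, SE 0.06, edgeR adjusted p = 0.158). Rictor, the defining subunit of mTOR complex 2, was higher in every ethanol library with a log2 fold change of 0.22, and the membrane scission gene Dnm2 stood at -0.19 (edgeR adjusted p of 0.187 and 0.289). The cytokine gene Il6 had no reads in any library, and Tnf was listed at 0 in 4 of 6.

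Of the 31 other claudin genes 21 were tested, with 11 above 0, 10 below and a median of 0.0068. Those with the smallest p were Cldn15, a pore-forming claudin of the intestine, and Cldn13, with log2 fold changes of 1.2 (SE 0.41) and 0.51 (SE 0.19), followed by Cldn7 at 0.50 (SE 0.30) and Cldn14 at -0.57 (SE 0.38), with edgeR adjusted p between 0.246 and 0.559. Cldn15, Cldn7 and Cldn14 were all below 1 TPM in every library. Cldn13 was at 7.11, 4.99 and 6.24 TPM in controls and 7.56, 10.0 and 9.64 TPM with ethanol, a level near that of Cldn5.

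**Figure D4:**
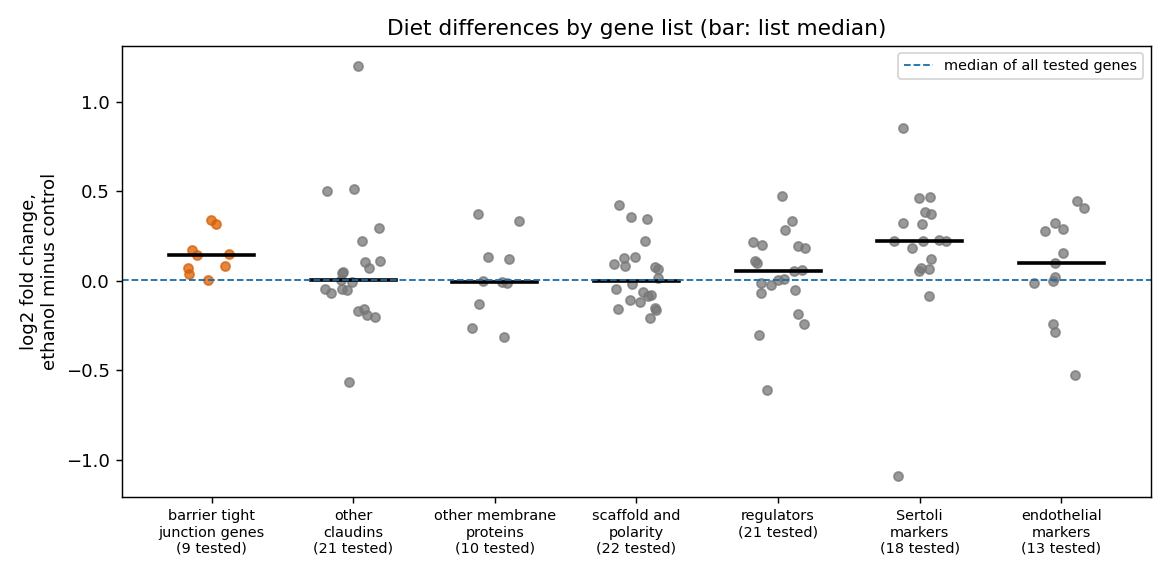
Log2 fold change of every tested gene by list, with a bar at each list median and a dashed line at the median of all tested genes, 0.0065. The 9 barrier genes all lie above 0 with a median of 0.14. The medians of the partner lists are -0.0049 to 0.06. Those of the other claudins, the endothelial markers and the Sertoli markers are 0.0068, 0.0998 and 0.22. Tjp3 turns below 0 in 8 of 15 alternative settings, and Cldn3 and Tjp1 in 2 of 16 each.

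The genes whose pattern over the 6 libraries was most like that of Cldn11, among the 10480 genes whose mean reached 10 CPM, were Gja6, a gap junction gene, Jazf1 and Shtn1, with Pearson's r of log2 CPM of 0.992, 0.990 and 0.989. Those most like F11r were Mcmbp, Vps41 and Bod1l, at 0.995, 0.994 and 0.993. These values rest on 6 libraries that share their scaling, and they are the highest among the 10480 genes. At the lower mark of 0.9, r was exceeded by 146 genes with Cldn11 and by 217 with F11r.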

How the data were processed

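Stranded total RNA libraries were made after ribosomal RNA removal, per the labels' protocols. Reads were aligned to mm10 with HISAT2, per the submitters' processing notes; not given in the sources used here were the annotation, the tool that counted reads and whether it used strand. The authors deposited one table with whole-number read counts per gene, FPKM (fragments scaled to transcript length and depth) and TPM (scaled so that each library has the same sum), per the file headers. FPKM was not used. Total counts were 38935654 to 47420249 per library. Every pair of libraries differed beyond sampling noise (chi-square per gene at least 7.65, where equal libraries give about 1).

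Counts were filtered by filterByExpr, scaled by TMM and tested with edgeR 4.0.16 in R 4.3.3 by the quasi-likelihood test, with no covariate and a threshold of 0.05 on the Benjamini-Hochberg adjusted p over 25073 genes. Standard errors and 95% intervals came from the F statistic and its degrees of freedom. Marker sums and ratios used TPM and exact permutation tests (scipy 1.17.1). Alternatives used DESeq2 1.42.0, limma 3.58.1 (log2 of TPM plus 1 or 0.1, genes at 0.1 TPM or more in 3 libraries), other scalings and filters, the replicate number as a block, and each library left out. The procedure was tested on simulated data. The 9 genes, the gene lists and the tests were chosen with earlier results of these data known. From each list the text names up to 4 genes of smallest p, 1 of which is not reported here; for Cldn11 and the barrier gene of smallest p it names the 3 genes of highest Pearson's r. Cdh1 and Epcam were named as checks of duct epithelium. Other genes, such as Clu, Kitl, Mro, Fabp4 and Cfd, and markers at or near 0 were named for their level after values were seen. Amh and Fshr were named for their sign, also after values were seen. Gene positions came from the NCBI table of GRCm38.p6 and overlaps from GENCODE M21.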

Additional observations from a re-analysis of the deposited data

How the results depend on the processing

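None of the 9 barrier genes passed under any of the 16 alternatives run (14 for Tjp3, which at least 1 CPM in 3 libraries removed and to which DESeq2 gave no adjusted p), and their median log2 fold change stayed between 0.12 and 0.21. Cldn11, Cldn5, F11r, Jam2, Jam3 and Ocln were above 0 in all 16. The number of barrier genes with every ethanol library higher was 4 with RLE or upper-quartile scaling, 5 with total counts alone and 6 on TPM. It was also 4 with each library left out in turn, but leaving a library out cannot lower this number. The number higher at an unadjusted p under 0.05 was 4 in the reported fit, 2 with RLE factors, upper-quartile scaling, limma-trend on log2(TPM + 1) or log2(TPM + 0.1), or the replicate block, 1 with DESeq2, and 1 to 3 with a library left out (2 without control library 2, and 1 without control library 3, ethanol library 2 or ethanol library 3); the cause was not tested. The number of all genes past the threshold was 0 in the reported fit (3343 at an unadjusted p under 0.05), 2 with upper-quartile scaling or at least 1 CPM in 3 libraries, 5 with limma-voom, 357 with DESeq2, 15 with the replicate block, and 0 to 3 with a library left out; 2 partner genes passed with DESeq2 and 0 without it. Same-numbered libraries did not deviate together for numbers 1 and 2 (r of -0.11 and 0.0029) and did so weakly for number 3 (r of 0.28). With no steady sign, the number is not taken as a pairing. The replicate block called 0 barrier genes.

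Signs turned only for differences near 0 or with wide errors. Tjp3 was at -0.0024 with RLE factors, -0.0036 with upper-quartile scaling, -0.0049 with DESeq2, -0.023 with limma-voom, -0.0042 with the replicate block, and between -0.32 and 0.22 with a library left out. Cldn3 was between -0.10 and 0.18 and Tjp1 between -0.041 and 0.0697 with a library left out. Igsf11 was at 0.017 with total counts alone, 0.045 on log2(TPM + 1), 0.046 on log2(TPM + 0.1), and between -0.104 and 0.0405 with a library left out. Epcam was at 0.015, 0.039 and 0.0398 under the same 3 settings and between -0.145 and 0.0819 with a library left out. The log2 ratio of Cldn5 to endothelial markers was -0.012 without control library 2 and positive, up to 0.19, without any other library; that of Cldn11 to Sertoli markers was between -0.167 and -0.0794 with a library left out. The median of all genes moved by at most 0.06 between scalings. Tjp3 had the fewest reads and the largest standard error of the barrier set.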

Other observations

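Outside the barrier set, the most abundant claudin RNA by sum came from the Cldn34 genes, a rodent-expanded group on the X chromosome. The 11 genes with that name summed to 167 to 183 TPM in each library, beside 81.9 to 102 TPM for the other 23 claudin genes together. Cldn34c4 and Cldn34b4 were the highest, at 35.0 to 42.0 and 36.3 to 42.3 TPM, levels near that of Jam3. These genes resemble one another, so reads may have been split among them, and the values of single copies are uncertain. Of the tested Cldn34 genes, 0 passed between the diets.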
